A study of Mus musculus with 186 samples.

Results

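Interferon-induced genes are the antiviral and immune genes that a cell switches on when interferon reaches it, and 41 of them, named by symbol, were followed here in a mouse model of scleroderma. Rows of the count table were matched to these symbols through GENCODE M21 gene names, and 40 of the 41 were found among the 22095 gene IDs of the table. Mx2 was not analysed here. All 40 passed the filter on low counts in lung and in skin, so every count below is over 40 genes unless a smaller group is named.

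Type I interferons (interferon alpha and beta) bind the receptor IFNAR1-IFNAR2, whose kinases JAK1 and TYK2 start the signal. STAT2 and IRF9 then enter the nucleus as parts of the complex ISGF3, which binds interferon-stimulated response elements in the promoters of its target genes. Interferon gamma, made mainly by T cells and NK cells, acts through a receptor of its own and is the stronger inducer of the guanylate-binding proteins and immunity-related GTPases. In people with scleroderma, blood and skin often show raised levels of interferon-induced genes.

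Female C57BL/6 mice of about 12 weeks received subcutaneous bleomycin (BLM), a DNA-cleaving antibiotic that injures tissue, dosed at 10 mg/kg/day, on 5 days of each week over 2 weeks into shaved skin between the shoulder blades. Controls received phosphate-buffered saline (PBS) on the same schedule. Tissue was taken on days 7 and 14 with no oral dosing, and on days 21, 28 and 42 from mice given oral vehicle from day 12 on. Further bleomycin mice received SB525334, an inhibitor of the TGF-beta type I receptor kinase ALK5, at 30 mpk BID from day 12 in place of vehicle and were sampled on days 21 and 28. Stranded total RNA of the superior lung lobe and of skin was sequenced after removal of ribosomal RNA in 93 libraries per tissue, in 24 groups of 7 to 9. The labels name no transgene or deletion for any group, no PBS group received SB525334, and day 42 had no SB525334 group. The labels do not say which lung and skin libraries came from the same mouse, and they do not describe the replicates further, so p-values measure the spread between these libraries.

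Lung libraries held 4.79 to 38.34 M expected counts and skin libraries 14.68 to 43.07 M. In lung 20 libraries stood apart in composition, of which 12, all of day 28 on plate 1, had high ribosomal protein transcripts, and others held epidermal, hair, muscle or liver transcripts. The lung library labelled bleomycin vehicle day 28 replicate 6 and the lung library labelled PBS day 28 replicate 7 differed by little more than counting noise. Their median squared count difference was 1.11 times that expected from counting alone, against 2.35 for the next closest pair of lung libraries and a median of 16.3 over 4278 pairs. Summed transcripts of 6 p53 targets, which DNA damage induces, were 323 CPM (counts per M counts of the library) in that library labelled bleomycin, 604 to 810 CPM in the other 6 bleomycin vehicle libraries of the day and 247 to 331 CPM in the 7 PBS libraries. Lung results of day 28 are therefore given with and without this pair. PBS day 28 replicate 6 of lung stood out by high interferon gamma targets, neutrophil and monocyte transcripts. In this library 37 of the 40 members lay above the PBS mean of the day. The median log2 difference was 1.56 for guanylate-binding proteins and immunity-related GTPases and 0.58 for the other members. In skin 3 libraries went against their group in these genes, PBS day 7 replicate 2 and PBS day 14 replicate 4 with high values and bleomycin day 7 replicate 3 with low values. Hair shaft transcripts exceeded 1000 CPM in 21 skin libraries, all but 2 of them from days 21 to 42.

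Promoter sequences show what the members share apart from their listing. Of the 41 symbols, 29 had an entry in a RefSeq table of promoters (GRCm38.p6, 250 bases before to 50 after the gene start). The core of the interferon-stimulated response element was searched as GAAA, any 2 bases and GAAA on either strand, where the reverse reads TTTC, any 2 bases and TTTC, with overlaps allowed. It occurred in 18 of 29 member promoters, or 62.1%, against 4.02% of the 16456 genes of the count table with an entry. The core of the gamma-activated site, TTC, any 3 bases and GAA, occurred in 6 of 29, or 20.7%, against 9.01%. Such a match is a description of letters and not evidence of binding. The stretches around the matches are shown for 7 members on which the results turn, 5' to 3' on the plus strand of GRCm38.p6 or, where marked minus, on the minus strand, with the matches in capitals.

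Ifit1, chr19:34640765-34640833, plus: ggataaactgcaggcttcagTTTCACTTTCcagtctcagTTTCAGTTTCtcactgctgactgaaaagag

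Isg15, chr4:156200855-156200916, minus: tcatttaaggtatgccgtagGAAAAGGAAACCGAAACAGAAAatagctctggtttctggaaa

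Oas1a, chr5:120907526-120907565, minus: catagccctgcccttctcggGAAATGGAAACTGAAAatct

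Oas1g, chr5:120887614-120887651, minus: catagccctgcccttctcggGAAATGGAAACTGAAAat

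Gbp2, chr3:142620584-142620633, plus: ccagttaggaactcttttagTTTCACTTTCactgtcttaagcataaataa

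Igtp, chr11:58199502-58199551, plus: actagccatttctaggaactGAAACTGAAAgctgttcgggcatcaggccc

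Irgm1, chr11:48871421-48871470, minus: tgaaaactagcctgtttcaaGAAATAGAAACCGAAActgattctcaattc

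Ifit1 held 2 separate matches and Isg15 a run of 3 overlapping ones, and Oas1a and Oas1g carried the same letters directly before the gene start. Guanylate-binding proteins and immunity-related GTPases with an entry had a match in 5 of 5 promoters and the other members in 13 of 24, so the match did not separate the groups that behaved differently in lung. On day 7 in skin all 18 members with a match and all 11 without one were called higher, with median log2 fold changes of 1.67 and 1.51. All 40 members were called higher there, so those calls could not differ by match. In lung 10, 12, 12, 7 and 7 of the 18 were called higher on days 7, 14, 21, 28 and 42. Of the 11 without a match 4, 4, 5, 3 and 5 were, beside 13.9%, 21.0%, 15.9%, 19.7% and 12.6% of all genes. The difference between members with and without a match was not tested.

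Levels in PBS tissue set the base for what follows. Per kilobase of exon, the highest mean levels in PBS lung were those of Ifi27l2a (83.9 CPM per kb), an ISG12 family protein, Bst2 (49.4), the virus-tethering protein tetherin, and Gbp2 (42.0), a guanylate-binding protein. The lowest were Oas3 (0.747) and Oas1g (0.947), members of the 2'-5' oligoadenylate synthetase family that activates RNase L. In PBS skin Ifi27l2a was again highest (213 CPM per kb) and Ifi44 lowest (0.978). Ifi204, a DNA sensor of the p200 family, averaged 76.0 ± 32.6 CPM (SD, n = 39) in PBS skin and 11.5 ± 10.8 CPM (SD, n = 39) in PBS lung. Reads of near-copies could be split between genes by the authors' counting. Of the 50-base windows of its exons, Oas1a shared 57.6% with Oas1g and Ifit3 51.2% with Ifit3b, so levels of these 4 are uncertain.

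In skin, bleomycin raised nearly the whole set on days 7 and 14, at the end of each week of injections, and still on day 21. All 40 members were called higher on day 7, 39 on day 14 and 39 on day 21, and none lower, where called means an adjusted p below 0.05 (edgeR quasi-likelihood test, Benjamini-Hochberg over all genes). Over all 15825 genes tested in skin, 25.5%, 31.5% and 20.2% were called higher on these days, and 20.7%, 28.1% and 21.0% lower. The median log2 fold change of the members was 1.60, 1.49 and 1.58, beside 0.02, 0.01 and -0.03 over all genes. Outside the calls were Ifi27l2a on day 14 (0.22 ± 0.23, SE) and Gbp2 on day 21 (0.59 ± 0.25, adjusted p = 0.0541). In all, 38 members were called higher on all 3 days. In bulk tissue a larger share of cells of a type and more RNA per cell cannot be told apart.

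**Figure D1:**
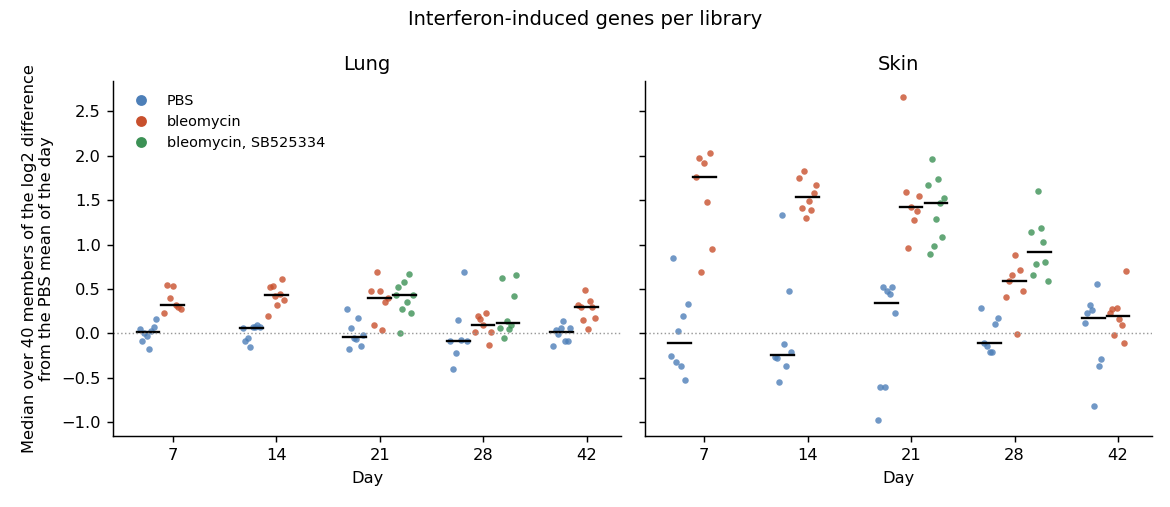
Median over 40 interferon-induced genes of the log2 difference of a library from the PBS mean of its day (vertical axis), by day, in lung and skin, with 1 point per library, a black line at each group's median, and colours for PBS, bleomycin and bleomycin with SB525334. Skin bleomycin libraries of days 7 to 21 lie at 0.69 to 2.66, lung bleomycin libraries of the same days at 0.04 to 0.69.

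Among the signal carriers in skin, Irf9 and Stat2, subunits of ISGF3, and Irf7, a transcription factor that amplifies interferon production, rose on days 7, 14 and 21. Irf9 on day 7 ran from 82.1 to 160 CPM (median 147) after bleomycin and from 51.1 to 77.2 CPM (median 61.1) after PBS, a log2 fold change of 1.14 ± 0.13 (adjusted p = 1.47e-10). The groups did not overlap. Irf7 on day 7 ran from 85.1 to 233 CPM (median 190) after bleomycin and from 17.5 to 134 CPM (median 32.4) after PBS (2.02 ± 0.30, adjusted p = 6.95e-08). They overlapped through PBS replicate 2 alone, at 134 CPM, since Irf7 after bleomycin was not below 85.1 CPM. The cytosolic RNA sensors Ifih1, Ddx58 and Dhx58 also rose on these 3 days, with group medians of 1.24, 1.29 and 1.24.

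Effectors that act on viral RNA or proteins rose in skin as well. Isg15, a ubiquitin-like modifier, ran from 13.6 to 53 CPM (median 31.7) on day 7 of bleomycin and from 1.51 to 12.6 CPM (median 4.31) after PBS (2.72 ± 0.35, adjusted p = 2.27e-09). Its lowest bleomycin library lay just above its highest PBS library. Usp18, which removes ISG15 from proteins and restrains the interferon receptor, ran from 30.7 to 81.5 CPM (median 64.7) against 9.89 to 33.9 CPM (median 13.9), with a log2 fold change of 1.86 ± 0.26. The groups overlapped through the PBS library at 33.9 CPM.

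Ifit1, which binds viral RNA and blocks its translation, ran from 68.3 to 186 CPM (median 142) on day 7 of bleomycin against 13.4 to 63.4 CPM (median 27.3) after PBS, without overlap (1.94 ± 0.35). On day 14 it ran from 100 to 138 CPM against 10.8 to 106 CPM (medians 110 and 21), and the overlap was due to PBS replicate 4 alone, at 106 CPM. Oas1a had log2 fold changes of 2.23 ± 0.28, 2.26 ± 0.28 and 2.24 ± 0.29 on days 7, 14 and 21. All 6 OAS genes rose on each of these days, with medians of 2.03, 2.17 and 2.33. Ifi44, an interferon-induced cytoplasmic protein, ran from 24.1 to 80.7 CPM (median 52) against 3.74 to 21.3 CPM (median 7.93) on day 7, without overlap (2.63 ± 0.33, adjusted p = 1.11e-09). Transcripts of the MX GTPase gene Mx1 rose by 2.22, 2.21 and 2.18, and its protein was not measured.

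The interferon gamma-responsive GTPases moved with the others in skin. Igtp, an immunity-related GTPase with a part in defence against intracellular parasites, ran from 45.2 to 117 CPM (median 98.7) on day 7 of bleomycin and from 17 to 39.9 CPM (median 24.8) after PBS (1.67 ± 0.26, adjusted p = 3.22e-07). The groups did not overlap, on day 14 they again did not (59.9 to 105 CPM against 16.6 to 49.6 CPM), and nor did they on day 21 (27.6 to 84.6 CPM against 7.52 to 25.5 CPM). Gbp2 on day 7 ran from 65.5 to 279 CPM (median 177) against 55 to 91 CPM (median 75.2), with some overlap (1.19 ± 0.25, adjusted p = 8.44e-05). All 3 immunity-related GTPases rose on days 7, 14 and 21, and all 3 guanylate-binding proteins on days 7 and 14.

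**Figure D2:**
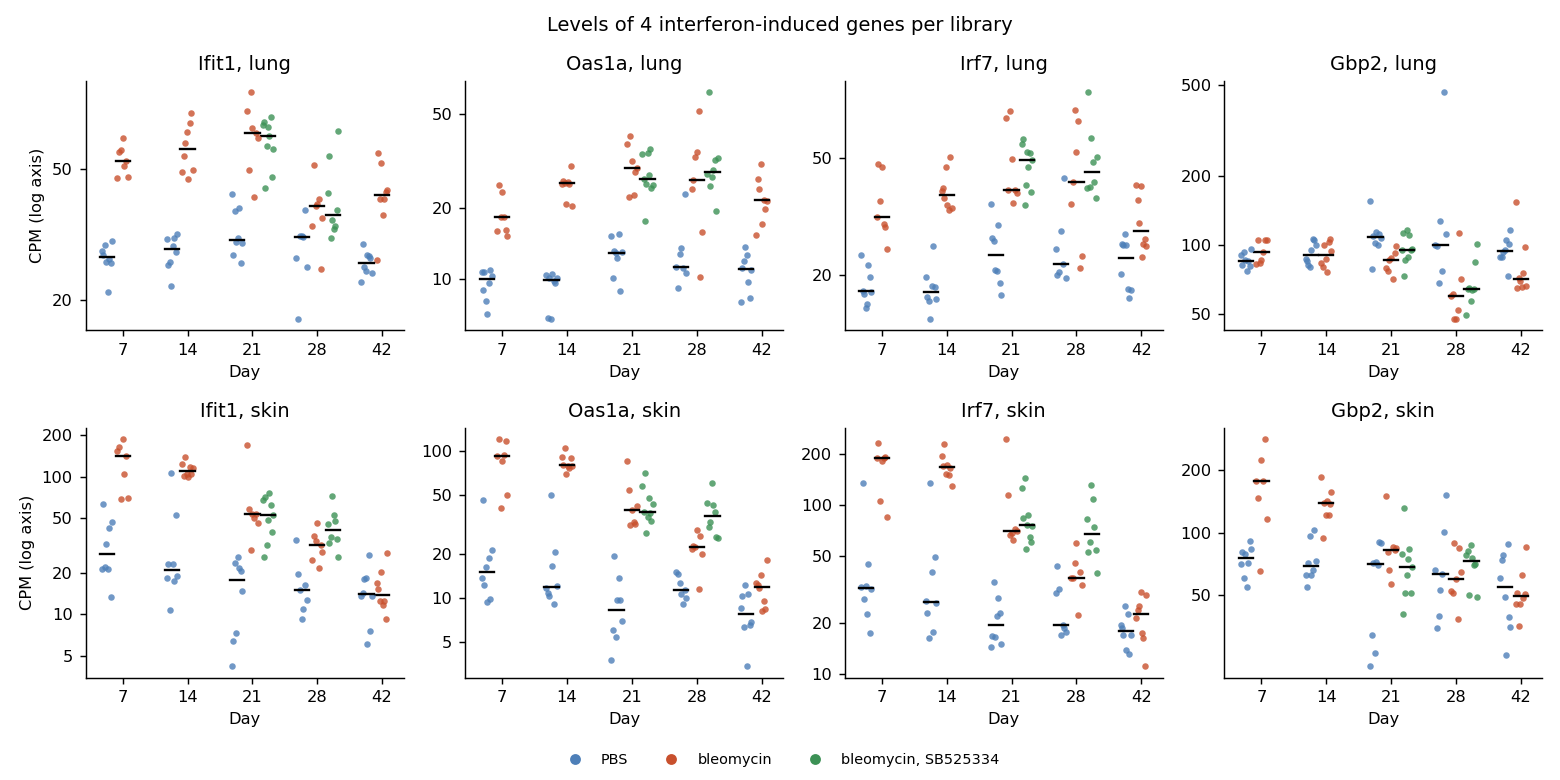
CPM on a log axis by day for 4 interferon-induced genes (columns) in lung and skin (rows), with 1 point per library, a black line at each group's median, and colours for PBS, bleomycin and bleomycin with SB525334. In skin Ifit1 on day 7 runs from 68.3 to 186 CPM after bleomycin and from 13.4 to 63.4 CPM after PBS, while in lung Gbp2 on day 14 runs up to 106 CPM in both groups.

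The ADP-ribosyltransferase Parp9 and its partner Dtx3l, which form a ubiquitin ligase, and Parp14 rose together in skin. Parp9 on day 14 ran from 106 to 157 CPM (median 143) after bleomycin and from 44.2 to 87.9 CPM (median 52.1) after PBS (1.32 ± 0.16, adjusted p = 1.07e-10), and Dtx3l and Parp14 had log2 fold changes of 1.13 and 1.15. None of the 3 overlapped between groups on that day. Of the remaining effectors, Rsad2 (viperin, which makes a chain-terminating nucleotide) rose by 2.02 ± 0.36 on day 14, Bst2 by 1.51 ± 0.24, Trim30a by 1.33 ± 0.23 and Cmpk2, a mitochondrial nucleotide kinase encoded next to Rsad2, by 1.12 ± 0.26. These 4 overlapped between groups. Rtp4 (1.76), Xaf1 (1.28) and Ifi35 (0.98) rose as well on day 14.

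Groups without overlap were counted across members. After bleomycin 8, 18 and 30 members of skin were higher in every library than in all PBS libraries on days 7, 14 and 21, beside 5.36%, 11.9% and 4.20% of all genes tested. None was lower in every library, beside 5.55%, 11.8% and 0.771% of all genes. Without the 3 skin libraries that went against their group, 40, 39 and 40 members were called higher on these days. Those libraries were picked by their member values, so these counts are a description and lend the result no support. Markers of other cell types moved with the members, and their part in the result was not tested. On day 7, macrophage markers were called higher for 7 of 10 genes, monocyte markers for 6 of 7 and T and NK cell markers for 8 of 10. The summed macrophage level ran from 1789 to 3407 CPM after bleomycin and from 1388 to 2813 CPM after PBS. The summed T and NK cell level ran from 42 to 86.3 CPM and from 19.7 to 38.6 CPM. On day 14 neutrophil markers summed to 118 to 1530 CPM after bleomycin and to 16.1 to 30.3 CPM after PBS, without overlap, and Ly6g, which defines neutrophils, was at 0 in every PBS library of skin. Monocyte sums on that day were 787 to 1037 CPM against 487 to 782 CPM. Epidermal markers then summed to 15458 to 25271 CPM after bleomycin and to 8538 to 11874 CPM after PBS, without overlap. Skeletal muscle markers summed lower, to 1465 to 3149 CPM (median 1842) against 1967 to 6499 CPM (median 5013), with overlap. For plasmacytoid dendritic cells, which can make large amounts of interferon alpha, 8 genes were listed, Tcf4 and Runx2 among them. Their sums were lower after bleomycin, at 262 to 333 CPM against 358 to 450 CPM on day 7. On day 14 they were 222 to 290 CPM against 348 to 414 CPM, and neither day had overlap. These sums were not split by gene, so they do not give the number of such cells. On day 21 the sums of this list overlapped, while macrophage sums (2743 to 4727 CPM against 690 to 2260 CPM) did not.

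By day 28, 2 weeks past the 2 weeks of injections, fewer members stood above PBS in skin. Of 40, 13 were called higher and 0 lower, beside 12.7% and 11.6% of all genes, with a median log2 fold change of 0.59 (all genes -0.03) and 37 of 40 values above 0. They were Bst2, Ddx58, Ifi204, Ifi44, Ifit2, Isg15, Oas1a, Oas1g, Oas2, Oasl1, Oasl2, Rtp4 and Trim30a. Ifi44 ran from 4.75 to 14.1 CPM (median 12.9) after bleomycin and from 2.95 to 6.37 CPM (median 3.83) after PBS (1.46 ± 0.35, adjusted p = 0.000914). Oas2 ran from 14.7 to 55.5 CPM (median 34.3) against 14.3 to 19.6 CPM (median 16.1), with a log2 fold change of 1.08 ± 0.26. The groups of both genes overlapped, and no member of the 40 was free of overlap on that day. Of the 15825 genes tested in skin, 617 were higher and 183 lower in every bleomycin library. The lack of such members was thus near the background and says little about them. Gbp2 (-0.18 ± 0.26) and Igtp (-0.02 ± 0.27) lay at the PBS level within their errors, and of the 6 GTPases none was called.

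On day 42 only Oas2 was called higher in skin, beside 5.28% of all genes, and no member was called lower. Its level ran from 9.81 to 24.3 CPM (median 18.1) against 6.18 to 13.7 CPM (median 10.4), a log2 fold change of 0.85 ± 0.25 (adjusted p = 0.019). The groups overlapped in part. Without the skin libraries above 1000 CPM of hair shaft genes, its log2 fold change was 0.44 and the call was lost, and Ifi27l2a was called lower. Oas2 was thus the member called higher in skin on all 5 days. The median over members was 0.18, beside -0.04 over all genes. It was -0.24 without the libraries above 1000 CPM, where Ifit1 (-0.77), Irf7 (-0.39), Isg15 (-0.51), Oas1a (-0.18) and Usp18 (-0.40) turned negative, and 0.34 with the hair shaft level as a term.

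Hair shaft transcripts varied between skin libraries of the later days, and they did not go with the members in the same direction in every group. In PBS skin of day 21, the 3 libraries above 1000 CPM of hair shaft genes had median member differences of -0.97 to -0.60 from the PBS mean, and the 5 others 0.23 to 0.52. These do not overlap. In PBS skin of days 28 and 42 the libraries above 1000 CPM had the lower medians, -0.14 against 0.14 and -0.29 against 0.26, with overlapping ranges. After bleomycin they had the higher medians, 0.66 against 0.44 on day 28 and 0.28 against 0.10 on day 42, again with overlap. The direction on days 28 and 42 thus differed between PBS and bleomycin skin, and this difference was not tested. Summed hair shaft levels on day 28 ran from 622 to 2336 CPM after bleomycin and from 7.47 to 7665 CPM after PBS. With the hair shaft level as a term in the fit, 30 members were called higher on day 28 and 10 on day 42. Without the libraries above 1000 CPM, 3 were called on day 28, Oas2 and Oas1g higher and Gbp2 lower. The count of day 28 thus moved by more than a factor of 1.5 in both directions, while those of days 7, 14 and 21 did not. The share of all genes called was counted in the main fit alone, so the counts of these refits have no share beside them.

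**Figure D3:**
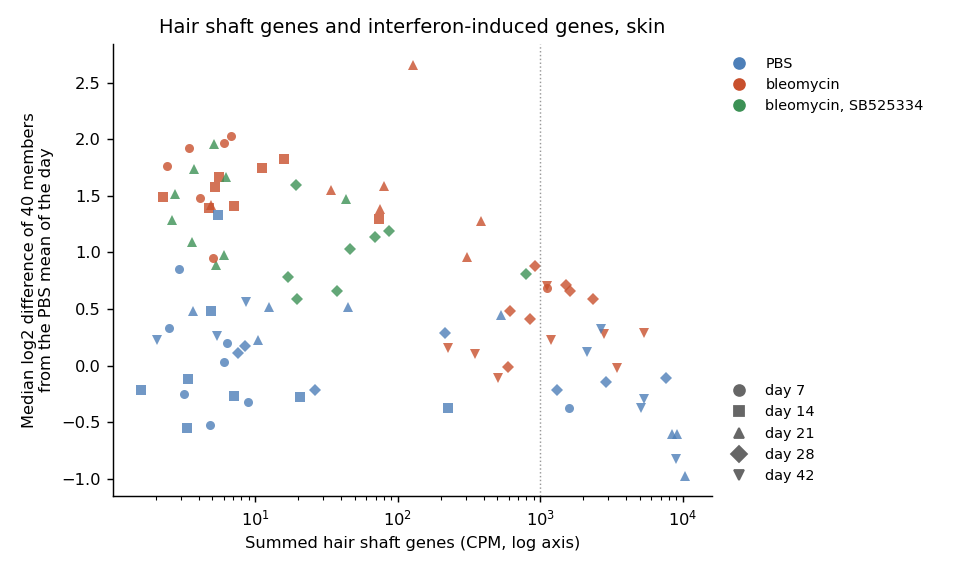
Median log2 difference of 40 interferon-induced genes from the PBS mean of the day (vertical axis) against summed hair shaft genes (CPM, log axis) in skin libraries, with colours for treatment and symbols for day, and a dotted line at 1000 CPM. PBS libraries of day 21 lie at -0.97 to -0.60 to the right of the line and at 0.23 to 0.52 to the left, while bleomycin libraries of day 28 lie at 0.59 to 0.71 to the right and at -0.01 to 0.88 to the left.

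In lung, bleomycin raised a smaller set by smaller amounts. Of 40 members 24 were called higher on day 7, 26 on day 14 and 26 on day 21, beside 13.9%, 21.0% and 15.9% of the 15647 genes tested. None was lower on days 7 and 14, and Gbp7 (-0.47) was lower on day 21, beside 17.8%, 25.4% and 19.4% of all genes called lower. The median log2 fold change was 0.43, 0.46 and 0.35, beside -0.02, -0.02 and -0.03 over all genes, and 21 members were called higher on all 3 days. For 10, 16 and 9 members every bleomycin library lay above every PBS library, beside 5.69%, 7.75% and 9.86% of all genes. No member was lower in every bleomycin library, beside 5.26%, 8.01% and 9.34% of all genes.

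The OAS family was called almost whole in lung, with 6 of 6 members higher on days 7, 14, 21 and 42 and 5 of 6 on day 28. Oas1g on day 14 ran from 5.16 to 9.2 CPM (median 6.9) after bleomycin and from 1 to 2.26 CPM (median 1.73) after PBS (2.07 ± 0.24, adjusted p = 5.04e-11). Oas1a on that day ran from 20.4 to 30 CPM (median 25.5) against 6.77 to 10.5 CPM (median 9.93), or 1.43 ± 0.18. Neither gene overlapped between groups on days 7, 14, 21 or 42.

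Ifit1 on day 7 ran from 47.2 to 62.2 CPM (median 53) in bleomycin lung and from 21.1 to 30.3 CPM (median 27.1) in PBS lung (0.99 ± 0.14, adjusted p = 2.33e-08). On day 14 it ran from 46.6 to 74.2 CPM against 22.1 to 31.7 CPM (1.06 ± 0.13). The groups did not overlap on either day. Mx1 on day 14 ran from 8.13 to 16.4 CPM (median 12) against 3.14 to 5.6 CPM (median 3.88), again without overlap (1.56 ± 0.20). Ifit3 and Ifit3b also rose on days 7 and 14, whereas Ifit2, of the same family, had log2 fold changes of 0.10 ± 0.11 and 0.16 ± 0.11 and was not called.

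Isg15 in lung on day 14 ran from 7.32 to 16.4 CPM (median 10.8) after bleomycin and from 3.27 to 4.96 CPM (median 3.78) after PBS (1.47 ± 0.23, adjusted p = 1.14e-07). Usp18 ran from 29 to 41.6 CPM (median 32.7) against 18.4 to 23.8 CPM (median 20.2), with a log2 fold change of 0.75 ± 0.11. Irf7 ran from 33.2 to 50.5 CPM (median 37.6) against 14.2 to 25.1 CPM (median 17.5), or 1.11 ± 0.17. All 3 separated the groups without overlap on that day. Of the ISGF3 subunits, Irf9 was called higher on days 7 (0.24 ± 0.07) and 21, and Stat2 on day 21.

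None of the 3 guanylate-binding proteins was called higher in lung on any day. Gbp2 on day 14 ran from 76.3 to 106 CPM (median 90.5) after bleomycin and from 80.4 to 106 CPM (median 90.8) after PBS (-0.02 ± 0.18). Igtp ran from 33 to 41.8 CPM (median 37.7) against 26.5 to 53.2 CPM (median 35), or 0.05 ± 0.21. The groups of both genes overlapped almost whole. The immunity-related GTPase Iigp1 was called higher on days 7 and 14, and Irgm1 on day 14. On days 7, 14, 21, 28 and 42 no call of a rise was made in lung for 9 members, which were Cmpk2, Gbp2, Gbp3, Gbp7, Herc6, Ifi35, Ifit2, Igtp and Parp14.

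**Figure D4:**
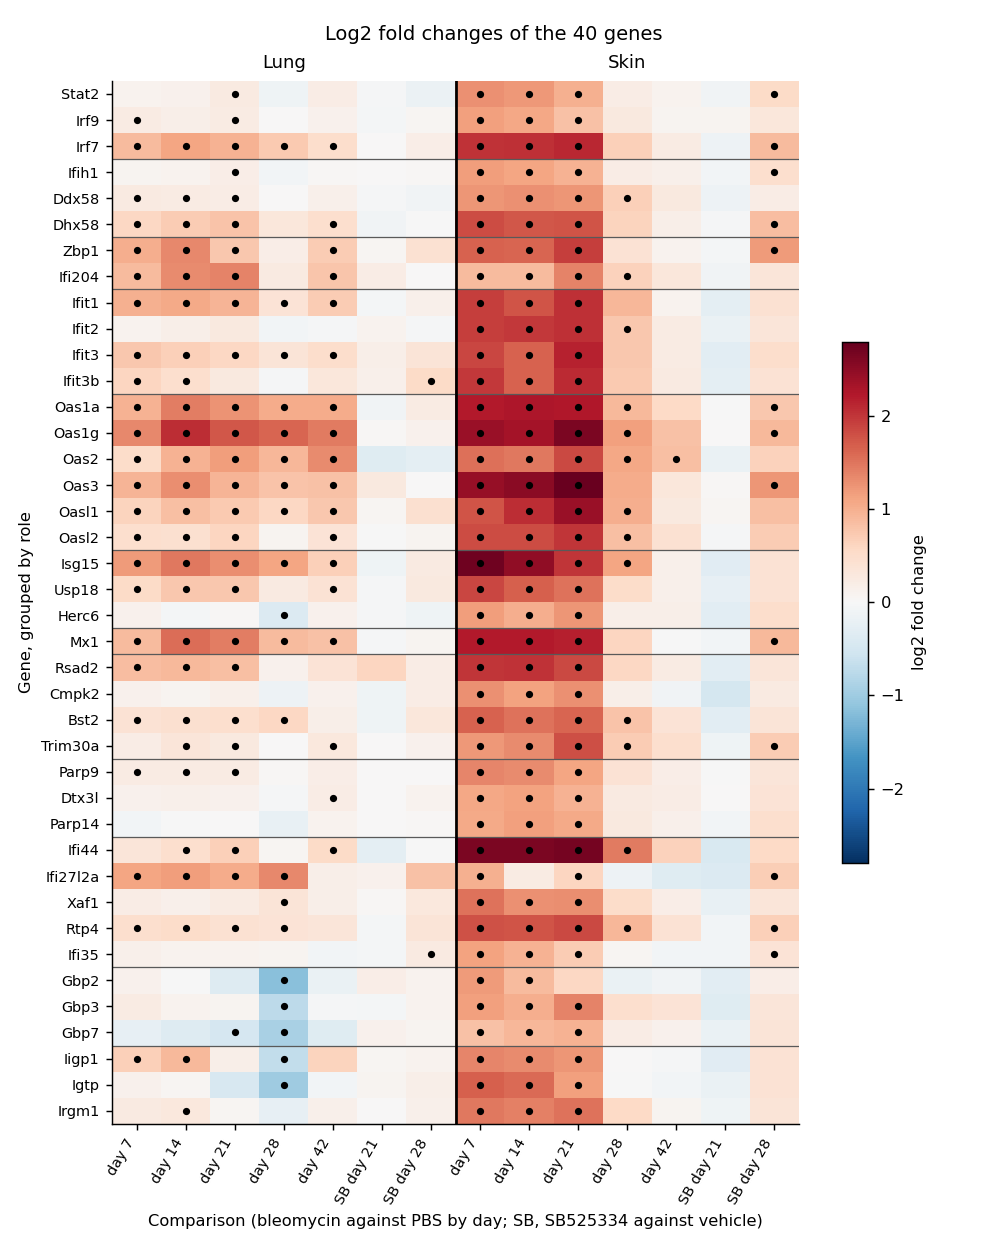
Log2 fold changes of 40 interferon-induced genes (rows, grouped by role) in bleomycin against PBS by day and SB525334 against vehicle (columns), in lung and skin, by colour, with a dot where the gene was called. Skin columns of days 7 to 21 are red in nearly all rows, whereas in lung the OAS genes are red and the guanylate-binding proteins pale or blue, with Gbp2 at -1.17 on day 28.

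Other members rose in lung by less. Rsad2 on day 14 ran from 21.6 to 37.2 CPM (median 27.9) after bleomycin and from 10.9 to 23.2 CPM (median 14.5) after PBS, with slight overlap (0.90 ± 0.23). Its neighbour Cmpk2 ran from 22 to 31.8 CPM (median 26.1) against 21.3 to 29.7 CPM (median 25.3) and was not called (0.07 ± 0.09). Parp9 was called on days 7, 14 and 21, at 0.23 ± 0.08 on each, whereas Parp14 had log2 fold changes of -0.07, -0.01 and 0.02. Bst2 (0.45) and Rtp4 (0.52) rose on day 14, and Xaf1 (0.15) and Ifi35 (0.10) were not called.

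Macrophage markers moved with the members in lung too, and their part was not tested. They were called higher for 6, 9 and 10 of 10 genes on days 7, 14 and 21. The summed macrophage level on day 14 ran from 6816 to 9296 CPM after bleomycin and from 4662 to 5941 CPM after PBS. T and NK cell markers did not rise, and on day 21 9 of 10 fell, with sums of 56.7 to 79.3 CPM (median 68.7) against a median of 113 CPM and a highest value of 145 CPM after PBS. Monocyte markers were called higher for 3, 4 and 2 of 7 genes. Endothelial markers were lower, with sums on day 14 of 1696 to 2259 CPM against 2325 to 3163 CPM, and the groups did not overlap on days 14, 21 and 42. The 8 genes listed for plasmacytoid dendritic cells summed to 271 to 352 CPM against 360 to 425 CPM on day 14, again not split by gene. B cell markers summed to 70.1 to 127 CPM against 177 to 360 CPM on day 21, and neither list overlapped between groups.

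On day 28, 14 of the 40 members were called higher in lung and 6 lower, beside 19.7% and 18.4% of all genes, with a median of 0.07 (all genes 0.01). The number lower did not exceed the background share. Those higher were Bst2, Ifi27l2a, Ifit1, Ifit3, Irf7, Isg15, Mx1, Oas1a, Oas1g, Oas2, Oas3, Oasl1, Rtp4 and Xaf1. Those lower were Gbp2, Gbp3, Gbp7, Herc6, Igtp and Iigp1, of which 5 are GTPases of the gamma-responsive families and Herc6 is an ISG15 ligase. Without the pair of libraries that matched each other, 15 were higher and the number lower was again 6, with a median of 0.09.

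Gbp2 ran from 47.6 to 113 CPM (median 59.8) in day 28 bleomycin lung and from 68.1 to 463 CPM (median 99.9) in PBS lung (-1.17 ± 0.20, adjusted p = 4.41e-06). Igtp ran from 26.8 to 56 CPM (median 34.5) against 32.4 to 167 CPM (median 54.2), or -1.0 ± 0.23. The groups overlapped, and the highest PBS value of both genes came from PBS replicate 6, which set the top of the range. The bleomycin value of 113 CPM for Gbp2 came from the library labelled bleomycin that matched a PBS library. Without PBS replicate 6 and that pair, 19 members were higher and 3 lower (Gbp2, Gbp7 and Igtp), with a median of 0.30, and Gbp3 at -0.35 lost its call. PBS replicate 6 was left out after its high member values were seen, so refits without it are a description and lend no support.

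Oas1g ran from 1.51 to 15.5 CPM (median 7.58) against 0.978 to 6.02 CPM (median 2.11) in day 28 lung, overlapping between groups (1.63 ± 0.26, adjusted p = 2.07e-06). Its lowest bleomycin value, 1.51 CPM, was that of the library that matched a PBS library, and the next was 4.6 CPM. Marker lists differed between these groups too, and their part was not tested. Macrophage genes were called higher for 8 of 10, endothelial genes lower for 5 of 6, neutrophil genes lower for 5 of 7 and T and NK cell genes lower for 4 of 10. Neutrophil sums ran from 43 to 389 CPM after bleomycin and from 69.2 to 954 CPM after PBS. No member separated the groups of this day, beside 0.141% of all genes higher and 0.0895% lower in every bleomycin library. On plate 1 alone, with 5 libraries a group, the median difference was 0.32, and on plate 2, with 2 a group and with the matching pair among these 4 libraries, it was -0.32. Of the 20 called members 7 had the same sign on both plates. Without the libraries that stood apart, only 2 bleomycin libraries were left, of which 1 was the library that matched PBS replicate 7. No member was then called, with 8 at an unadjusted p below 0.05, and the median was -0.18. With only these groups in the fit none was called either, with 13 at an unadjusted p below 0.05, while DESeq2 on all groups called 15 higher and 6 lower.

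On day 42, 18 members were called higher in lung and none lower, beside 12.6% and 6.77% of all genes, with a median of 0.31 (all genes 0.02). Oas2 ran from 20.5 to 43.5 CPM (median 28.3) after bleomycin and from 8.56 to 17 CPM (median 12.2) after PBS (1.33 ± 0.20, adjusted p = 1.64e-07). Oas1a, Oas1g and Oas2 had no overlap between groups, as had 2.54% of all genes. Ifit1 ran from 26.4 to 55.9 CPM (median 41.6) against 22.7 to 29.6 CPM (median 26), with overlap (0.70 ± 0.13). All 18 kept their sign on both plates. On all 5 days 10 members were called higher in lung, which were Ifit1, Ifit3, Irf7, Isg15, Mx1, Oas1a, Oas1g, Oas2, Oas3 and Oasl1.

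An F test asked whether the bleomycin effect differed between the 5 days. In skin 39 of 40 members were called, all but Oas2, beside 62.0% of all genes. In lung 6 were called, Gbp2, Iigp1, Gbp3, Igtp, Ifit1 and Usp18, fewer than the background share of 26.5%. The number was 2 without PBS day 28 replicate 6 and 3 without that library and the matching pair. Without the libraries that stood apart, 21 were called. PBS tissue was not constant either, with the same mix of time and oral dosing. Over the 5 days the PBS groups differed in 35 members in skin, beside 55.2% of all genes, and in 10 in lung, beside 21.7%. The lung count was near the background share. The skin number was 7 with the hair shaft level as a term and 8 without the libraries above 1000 CPM.

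The difference between tissues was tested directly as the skin effect minus the lung effect. The fit took lung and skin libraries as independent, since the labels match no mice between tissues. On day 7, 33 members had a larger effect in skin and none in lung, beside 8.62% and 7.98% of all 16585 genes, with a median difference of 1.09. The numbers were 31 and 1 on day 14 (15.6% and 16.7%) and 33 and 0 on day 21 (13.5% and 16.6%). They were 8 and 1 on day 28 (10.6% and 15.4%), and 7 and 1 without the matching pair. Without the skin libraries above 1000 CPM of hair shaft genes, 18 members had a larger effect in skin on day 21, and 1 a larger and 1 a smaller effect on day 28. On day 42 none was called, with 1 member at an unadjusted p below 0.05, beside 4.98% and 7.13%.

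Ifi44 and Ifit2 had the smallest p of the members on days 7 and 14. For Ifi44 the skin effect exceeded that in lung by 2.26 ± 0.36 on day 7 (adjusted p = 8.45e-07). For Ifit2 the excess was 1.79 ± 0.29 on day 7, 1.79 ± 0.28 on day 14 and 1.71 ± 0.30 on day 21. The GTPases differed as well, with Igtp at 1.51 ± 0.34, 1.5 ± 0.33 and 1.54 ± 0.35 and Gbp2 at 1.01 ± 0.32, 0.87 ± 0.30 and 0.90 ± 0.32 on these days. For Ifit1, called in each tissue on day 7, the difference of 0.90 ± 0.37 did not pass (adjusted p = 0.0801).

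Ifi27l2a went the other way, with a smaller effect in skin on day 14 (-1.0 ± 0.40) and day 28 (-1.52 ± 0.43). In lung it ran from 60.5 to 88.1 CPM (median 68.4) after bleomycin and from 18.4 to 55.5 CPM (median 28.9) after PBS on day 14, without overlap (1.17 ± 0.33). In skin it ran from 97.5 to 178 CPM (median 166) against 79.3 to 238 CPM (median 126) on that day, with the PBS range enclosing that of bleomycin. On day 28 its high lung values came from bleomycin replicates 1, 4 and 5 (358, 231 and 452 CPM) and PBS replicate 2 (246 CPM), all from plate 1 and among the libraries with high ribosomal protein transcripts. The other 4 bleomycin libraries ran from 33.3 to 68.1 CPM and the other 6 PBS libraries from 34 to 56.6 CPM, and the part of the ribosomal transcripts was not tested. The sensors Zbp1 and Ifi204 rose in both tissues on days 7, 14 and 21, and of these the difference between tissues was called for 1 gene on day 21 and for none on days 7 and 14.

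**Figure D5:**
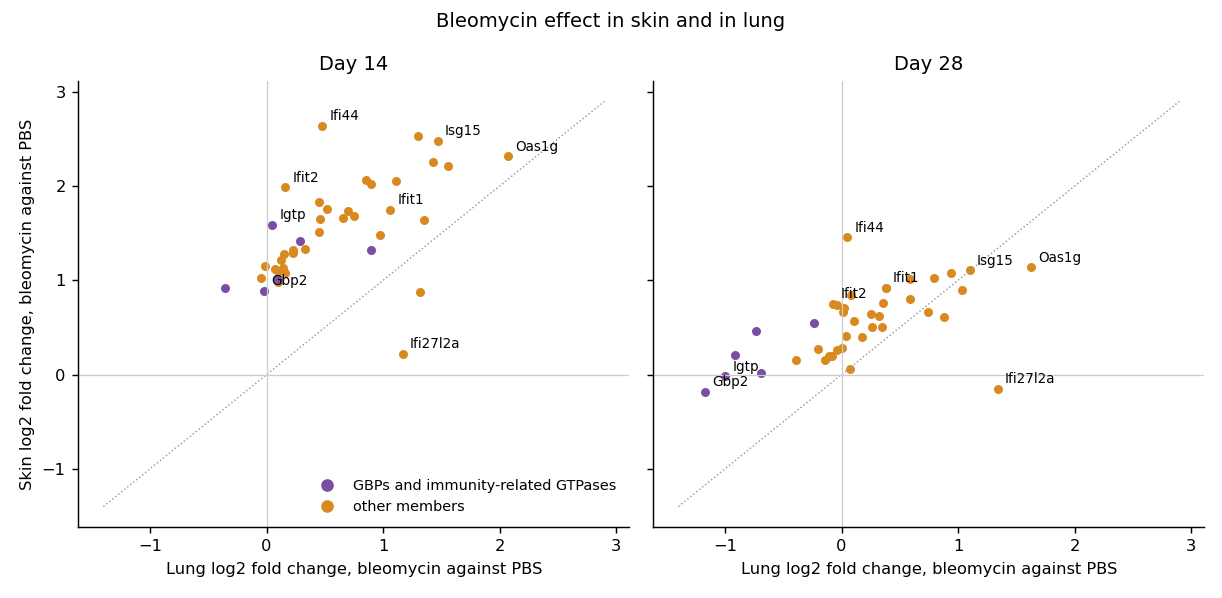
Log2 fold change of bleomycin against PBS in skin (vertical axis) against that in lung (horizontal axis) for 40 interferon-induced genes on days 14 and 28, 1 panel per day and 1 point per gene, with guanylate-binding proteins and immunity-related GTPases in a colour of their own and a dotted line of equality. On day 14 the skin effect is larger by a median of 0.99, with Ifi27l2a and Ifi204 below the line, and on day 28 by a median of 0.34, with the GTPases left of 0 in lung.

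ALK5 inhibition was compared with vehicle within bleomycin mice. On day 21 no member was called in either tissue by edgeR or DESeq2, with 1 in lung and 0 in skin at an unadjusted p below 0.05, beside 0.179% and 0.224% of all genes called higher and lower in lung and 5.81% and 6.02% in skin. Medians were 0.01 in lung and -0.14 in skin. Ifit1 in lung, for example, ran from 43.9 to 72 CPM (median 63.3) under SB525334 and from 41.1 to 85.7 CPM (median 64.6) under vehicle (-0.06 ± 0.13). In skin Irf7 ran from 54.8 to 145 CPM (median 75.6) against 62.4 to 244 CPM (median 69.9), or -0.14 ± 0.28. The ranges overlapped almost whole. With the hair shaft level as a term, 7 members were called lower in skin, and the share of all genes was not counted under that setting.

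On day 28, 13 members were higher under SB525334 than under vehicle in skin and none lower, beside 12.2% and 11.6% of all genes, with a median of 0.42 (all genes 0.00) and all 40 values above 0. They were Dhx58, Ifi27l2a, Ifi35, Ifih1, Irf7, Mx1, Oas1a, Oas1g, Oas3, Rtp4, Stat2, Trim30a and Zbp1. Zbp1, a sensor of Z-form nucleic acids that can trigger cell death, ran from 19.1 to 43.5 CPM (median 25.3) under SB525334 and from 6.27 to 18.4 CPM (median 11.9) under vehicle (1.19 ± 0.30, adjusted p = 0.0024). Dhx58 ran from 13.9 to 35.8 CPM (median 17.7) against 5.8 to 13.4 CPM (median 11.4), or 0.87 ± 0.27. Neither overlapped, nor did Oas1g and Trim30a, and 2.34% of all genes were higher in every library.

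Irf7 ran from 39.3 to 132 CPM (median 67.1) under SB525334 and from 22.2 to 59.4 CPM (median 37.1) under vehicle in day 28 skin, overlapping in part (0.88 ± 0.30, adjusted p = 0.0231). Isg15 (0.40 ± 0.34) and Ifit1 (0.43 ± 0.35) were not called. The vehicle group is the same that served against PBS on day 28, so the comparisons share its libraries. Hair shaft transcripts moved with the comparison, at 17 to 807 CPM under SB525334 and 622 to 2336 CPM under vehicle. With their level as a term no member was called, with 3 at an unadjusted p below 0.05, and Zbp1 was at 0.72. Without the libraries above 1000 CPM 12 members were called. Monocyte markers were higher for 7 of 7 genes, with sums of 668 to 1108 CPM against 442 to 657 CPM, and their part was not tested.

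In lung on day 28 SB525334 gave 2 calls, Ifit3b (0.54 ± 0.14, adjusted p = 0.00899) and Ifi35 (0.25 ± 0.08, adjusted p = 0.0255), both higher, beside 2.64% and 5.73% of all genes. Ifit3b ran from 10.5 to 29.9 CPM (median 19.7) under SB525334 and from 10.9 to 17.1 CPM (median 14.1) under vehicle, with overlap. The median was 0.11, beside -0.03 over all genes. Without the matching pair the same number was called, with a median of 0.08, and without PBS day 28 replicate 6 as well only Ifit3b was. On plate 1 alone, with 6 libraries on SB525334 and 5 on vehicle, the median difference was -0.04 and 16 of 40 values lay above 0. On plate 2, with 2 a group and the matching library among those on vehicle, it was 0.63 and all 40 did. The 2 called members had the same sign on both plates. Without the libraries that stood apart, which left 2 libraries a group and the matching one among those on vehicle, Ifit3 alone was called and the median was 0.69. Neutrophil markers were higher for 6 of 7 genes here, with sums of 179 to 1257 CPM against 43 to 389 CPM.

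Beyond the members, 83 other genes of the pathway were tested in lung and 82 in skin, from a list of ligands, receptors, kinases, sensors, regulators and further inducible genes. In skin 71, 68 and 72 were called higher on days 7, 14 and 21 and 0, 2 and 2 lower, beside 25.5%, 31.5% and 20.2% of all genes higher and 20.7%, 28.1% and 21.0% lower. On day 7 Adar, an RNA-editing enzyme, rose by 1.04 ± 0.11 (adjusted p = 3.68e-12), Parp12 by 1.23 ± 0.15 and Eif2ak2, the RNA-activated kinase PKR, by 1.20 ± 0.15. Of 6 receptor genes 4 rose, of 11 upstream sensors and adaptors 8 rose, and of 7 genes that restrain the pathway 6 rose. On days 28 and 42 the list gave 21 and 4 calls higher and 2 and 0 lower in skin, beside 12.7% and 5.28% of all genes higher and 11.6% and 4.96% lower, so the count higher on day 42 was near the background. Under SB525334 on day 28 it gave 27 higher and 0 lower, beside 12.2% and 11.6% of all genes.

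In lung 15, 26, 19, 16 and 24 of the 83 were called higher on days 7, 14, 21, 28 and 42, and 7, 11, 11, 24 and 0 lower. Over all genes 13.9%, 21.0%, 15.9%, 19.7% and 12.6% were called higher and 17.8%, 25.4%, 19.4%, 18.4% and 6.77% lower, so the count higher on day 28 was near the background and those lower on days 7, 14, 21 and 42 were below it. On day 14 Socs3, which restrains cytokine receptors, rose by 1.53, Tmem173, the adaptor STING of DNA sensing, by 1.21, Lgals3bp by 1.06 and Cxcl10, a chemokine that attracts T cells, by 3.06. On day 28 Irf1 (-0.67), Gbp4 (-1.39) and Gbp6 (-1.25) fell, while Ifngr2, a subunit of the interferon gamma receptor, rose by 0.62. These 4 were not refitted without PBS day 28 replicate 6, the matching pair or the libraries that stood apart, which moved or ended calls of members on that day.

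Transcripts of the interferons themselves were scarce. Ifnb1, interferon beta, had 13 counts in 10 of 54 bleomycin libraries of skin and 2 counts in 2 of 39 PBS libraries, and 7 counts in all of lung, too few for a test. Ifng, interferon gamma, passed the filter in lung alone. In skin it ran from 0.389 to 1 CPM (median 0.72) on day 7 of bleomycin and from 0 to 0.362 CPM (median 0.139) after PBS, without overlap and without a test. In lung it ran from 0 to 0.591 CPM (median 0.151) on day 28 of bleomycin and from 0.188 to 1.63 CPM (median 0.295) after PBS (-1.48 ± 0.50, adjusted p = 0.0153), and was higher under SB525334 on that day (1.58, adjusted p = 0.0339). The groups of that day include the matching pair and PBS replicate 6, and their part in the Ifng difference was not tested.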

How the data were processed

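Lung and skin RNA of 186 libraries was analysed from 2 tables that the authors deposited. The authors deposited expected counts per Ensembl gene, of which 83.7% are whole numbers, and per the submitters' processing notes the tools were RSEM and edgeR and the build GRCm38, with versions that are not given in the sources used here. For 1 alternative, log2 CPM values were used that the authors deposited after a correction for plate. Expected counts were rounded and tested with edgeR 4.0.16 (R 4.3.3) by the quasi-likelihood F test, with filterByExpr by group, TMM scaling and a plate term. All 12 groups of a tissue shared a fit, and both tissues shared one, with plate within tissue, for differences between tissues. P-values were adjusted by Benjamini-Hochberg over all genes tested, and genes with adjusted p below 0.05 were called. Standard errors are the log2 fold change divided by the root of F. Levels are CPM scaled by TMM. The fits were tested on simulated data. Expected counts per library bound the precision of low genes.

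Alternatives were RLE size factors, DESeq2 1.42.0, limma 3.58.1 on the log2 table, no filter, no plate term, a replicate block, only the groups compared, and leaving out libraries. Members, gene lists and marker lists were chosen with earlier results of these data known. Named with values are Ifit1, Isg15, Irf7, Oas1a, Usp18, Gbp2 and Igtp, up to 4 called members per direction and comparison with the smallest p, and up to 4 genes of the pathway list. Further members were named after their values were seen, where they help to describe a family. The values of 1 gene of the pathway list are not reported here.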

Additional observations from a re-analysis of the deposited data

Results flagged for a closer look

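Of 192 groups of values checked, 30 had a library far from the others by Dixon's test. Chance gives this in about 1 of 20 groups of independent, normally spread values. The groups here held CPM and medians of members from the same libraries, so the 30 cannot be set against that rate. Many of the 30 fell in few libraries. Bleomycin vehicle day 21 replicate 1 of skin was high, with a median member difference of 2.66, Ifit1 at 169 CPM, Isg15 at 28 CPM, Irf7 at 244 CPM, Usp18 at 70.8 CPM, Gbp2 at 149 CPM and Igtp at 84.6 CPM. PBS day 14 replicate 4 of skin was high in Ifit1 (106 CPM), Isg15 (15.4), Irf7 (135), Oas1a (50.5), Usp18 (43.2) and Igtp (49.6). PBS day 7 replicate 2 of skin was high in Irf7 (134 CPM), Oas1a (46.5) and Usp18 (33.9). Other high skin values were Ifit1 at 34.5 CPM in PBS day 28 replicate 1 and Gbp2 at 131 CPM in SB525334 day 21 replicate 3.

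In lung PBS day 28 replicate 6 was high in Irf7 (42.7 CPM), Oas1a (23) and Gbp2 (463). SB525334 day 28 replicate 2 was high in Irf7 (83.3 CPM) and Oas1a (61.8). The library labelled bleomycin vehicle day 28 replicate 6, which matched a PBS library, was high in Gbp2 (113 CPM). Bleomycin vehicle day 42 replicate 1 was high in Gbp2 (154 CPM) and Igtp (99.8), PBS day 21 replicate 1 in Gbp2 (156) and bleomycin day 7 replicate 2 in Igtp (54.3). Usp18 was high in PBS day 7 replicate 1 (24 CPM) and PBS day 14 replicate 1 (23.8).

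The bleomycin effect differed between skin and lung by the test of the difference in 33, 32, 33 and 9 members on days 7, 14, 21 and 28. On day 7 the skin effect was larger by 1.09 for Irf7, 1.01 for Gbp2, 1.28 for Usp18, 1.48 for Isg15, 1.20 for Oas1a and 1.51 for Igtp, all log2. On day 14 it was larger by 0.90 for Irf7, 0.87 for Gbp2, 0.89 for Usp18, 0.79 for Oas1a and 1.5 for Igtp. On day 21 it was larger by 1.08 for Irf7, 0.90 for Gbp2, 0.71 for Usp18, 1.02 for Ifit1, 0.93 for Oas1a and 1.54 for Igtp. On day 28 it was larger by 0.97 for Gbp2 and 0.95 for Igtp.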

How the results depend on the processing

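Counts of members called on days 7, 14 and 21 of bleomycin, in both tissues, and on day 42 in lung stayed within 1.5 times under every alternative run. RLE size factors, DESeq2, no filter and no plate term moved no count of members by more than that. With a replicate block, 18 members were called on day 28 in lung and 12 in skin, and 13 for SB525334 on day 28 in skin. The block changed no direction or call among 131 log2 fold changes of genes chosen by rule. Of the other called members it lost Rtp4 and Iigp1 on day 28 in lung, Oasl1 on day 28 in skin, and Ifih1 and Rtp4 for SB525334. Per a check of deviations, same-numbered libraries of the groups compared within a tissue did not deviate together throughout. The replicate number was thus not used as a block in the main fit. Lung and skin libraries of the same number were not checked against each other, so whether the numbers pair tissues of a mouse stays unknown.

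For lung on day 28 the count of 20 was 0 without the libraries that stood apart and 0 with only the groups compared. Without the libraries that stood apart Irf7 was at -0.18, Isg15 at -0.25, Oas1a at -0.08 and Oas2 at -0.13, with a library that matched PBS as 1 of the 2 left after bleomycin. SB525334 on day 28 in lung gave 4 calls with limma on the log2 table, 1 without the libraries that stood apart, 0 with only the groups compared and 1 without the matching pair and PBS day 28 replicate 6. The bleomycin effect across days in lung gave 21 without the libraries that stood apart, 2 without PBS day 28 replicate 6 and 3 without the matching pair as well. PBS groups across days in lung gave 6 with limma, 17 without the libraries that stood apart and 18 with only these groups.

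In skin with only the groups compared, day 28 gave 20 calls and SB525334 on day 28 gave 24. With the hair shaft level as a term, days 28 and 42 gave 30 and 10, SB525334 on days 21 and 28 gave 7 and 0, and PBS groups across days gave 7. Gbp2 and Igtp were then at 0.15 and 0.27 on day 28, and Gbp2 at -0.23 for SB525334. Without the libraries above 1000 CPM of hair shaft genes, day 28 gave 3 and PBS groups across days 8, and Ifit1 was at -0.77, Irf7 at -0.39, Isg15 at -0.51, Oas1a at -0.18 and Usp18 at -0.40 on day 42. Without the 3 libraries that went against their group, day 42 gave 2. Skin minus lung gave 18, 2 and 2 on days 21, 28 and 42 without the hair libraries, and 3 on day 28 without the lung libraries that stood apart. Apart from fewer samples, the cause was not tested. Settings on hair and on single libraries were chosen after seeing the data. Shares of all genes called were counted in the main fit alone, so counts under alternatives have none beside them. Oas1g and other low genes are limited by depth.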
